A study of Mus musculus with 6 samples.

Results

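The 4 TCF/LEF transcription factor genes and 4 genes of the BCL9 and Pygopus co-factors were examined in mouse penile tumors. The 8 genes, Lef1, Tcf7, Tcf7l1, Tcf7l2, Bcl9, Bcl9l, Pygo1 and Pygo2, were chosen by name from the 24063 gene symbols of the RNA-seq count tables. All 8 were detected in enough libraries to be tested. The SA group comprised 3 spontaneous penile tumors from 5-month-old mice of the genotype PB-Cre+ Smad4L/L ApcL/L. In these mice Cre recombinase, driven by the androgen-responsive probasin promoter, deletes floxed parts of Smad4 and Apc in androgen receptor-positive epithelium. The WT group comprised penile epithelium from 3 age-matched wild type C57BL/6 mice, which carried neither Cre nor floxed alleles. The genetic background of the SA mice was not given in the sources used here. Both deletions, the Cre transgene and the change from epithelium to tumor differ together between the groups, so their contributions cannot be told apart.

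β-catenin has no DNA-binding domain of its own, and it reaches Wnt target genes through TCF/LEF proteins. These factors share an HMG box that binds DNA and an N-terminal region that binds β-catenin, and without β-catenin they recruit TLE (Groucho) corepressors. APC is a scaffold of the complex that marks β-catenin for destruction. BCL9 and BCL9L bind both β-catenin and Pygopus, whose PHD finger binds methylated histone tails. LEF1 and TCF7 (also called TCF-1) are known for activation in lymphocytes and hair follicle matrix, TCF7L1 (TCF3) for repression in epithelial stem and basal cells, and TCF7L2 (TCF4) for the intestinal epithelium.

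Lef1 lies on the forward strand of chromosome 3, at 131110297 to 131224357 in the RefSeq annotation of GRCm38.p6, the build called mm10. It is shown with sequence because it had the largest change of the 8 genes and because its annotated transcripts begin at separate starts. The transcript row used for Lef1, NM_010703, spans 12 exons and 397 codons in GENCODE M21. A second row, NM_001276403, begins 2326 bases downstream in GENCODE, inside the gene, and has 331 codons. Its first coding base lies after the first 69 codons of the longer form, which hold the N-terminal β-catenin-binding region. RefSeq places both starts before the GENCODE ones, which are at 131110471 and 131112797. A further RefSeq start, with upstream bases at chr3:131110073-131110322, is not shown. The 250 bases before each of the RefSeq upstream and internal starts overlap no GENCODE exon of Lef1. They are given with CpG dinucleotides in capitals. The first lies at chr3:131110047-131110296 and the second at chr3:131112541-131112790, both on the forward strand.

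Lef1 upstream start: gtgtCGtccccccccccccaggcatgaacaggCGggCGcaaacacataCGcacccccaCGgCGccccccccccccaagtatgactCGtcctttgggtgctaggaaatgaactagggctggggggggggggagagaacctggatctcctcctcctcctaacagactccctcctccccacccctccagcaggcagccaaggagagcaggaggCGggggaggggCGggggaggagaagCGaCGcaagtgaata

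Lef1 internal start: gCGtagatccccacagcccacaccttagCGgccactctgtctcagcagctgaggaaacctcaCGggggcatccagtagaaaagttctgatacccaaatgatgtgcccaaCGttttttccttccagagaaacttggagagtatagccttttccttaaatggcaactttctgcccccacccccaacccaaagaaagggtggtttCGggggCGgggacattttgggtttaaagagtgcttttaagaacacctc

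The sequence before the upstream start held 11 CpG and 66.4% G and C, and the one before the internal start held 6 CpG and 50.8%. Over all 32851 RefSeq promoter windows the medians in 250 bases were 6 CpG and 52.4%. Promoter windows of 300 bases, 250 before and 50 after each start, were present for 7 of the 8 genes, with 14 windows in all and none for Bcl9l. The TCF word CTTTGNN, in which each N is A or T, was searched on both strands. It occurred in 2 of the 14 windows, against 16.9% of all windows. One is at a Lef1 start still further inside the gene and reads on the opposite strand, 147 bases before the start. The other is at an internal Tcf7l2 start, 14 bases before it. Both are printed with flanking bases, the word in capitals, from chr3:131156132-131156168 and chr19:55895292-55895328, forward strands. No such word stood in the windows of Tcf7, Tcf7l1, Bcl9, Pygo1 or Pygo2, which describes these letters and windows only. The Tcf7 windows reach up to 52283264, inside its gene record, which runs to 52283383 on the reverse strand. They therefore hold no base before the outermost start of the record, and a promoter there was not searched.

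Lef1 word: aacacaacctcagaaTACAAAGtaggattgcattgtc

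Tcf7l2 word: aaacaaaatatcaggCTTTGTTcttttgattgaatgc

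Gene rows held 24466536, 27547073 and 110509147 counts in SA libraries 1 to 3, and 25016259, 32871142 and 23828283 in WT libraries 1 to 3. Levels are CPM, counts relative to the library total after TMM scaling, and 3 counts correspond to between 0.0244 and 0.137 CPM. A gene is said to have risen or fallen where its adjusted p in edgeR's quasi-likelihood test was under 0.01, and the study's second threshold, on the size of the log2 fold change, was 2. The median log2 fold change of all 16336 genes tested was 0.03. The targeted genes were read first. Apc was 253, 194 and 197 CPM in SA and 62.5, 85.3 and 91.0 CPM in WT, and it rose (log2 fold change 1.43, adjusted p = 0.000185). Its row covers the whole transcript, so deletion of a floxed part need not lower it, and the level does not check the deletion. Smad4 was 36.6, 36.0 and 46.0 CPM in SA and 61.1, 69.7 and 72.5 CPM in WT, and it fell (log2 fold change -0.77, adjusted p = 0.00114). Of 10 stratified epithelium markers 6 fell, among them the basal keratin Krt5, and 1 (Epcam) rose. The basal keratin Krt14 did not pass the test. The summed level of the 10 markers was 25852 to 30729 CPM in SA and 67206 to 75056 CPM in WT. Its largest parts were Krt10 and Krt1, with means of 24974 and 20306 CPM in WT and 6370 and 6579 CPM in SA. Of all genes tested 20.1% rose and 17.5% fell. All 6 smooth muscle markers fell, from a summed 1538 to 2056 CPM in the WT epithelium to 35.5 to 124 CPM in SA, so the WT libraries held RNA of more than epithelium.

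Within the TCF/LEF genes the composition differed between the groups. Lef1 and Tcf7 rose, and Tcf7l1 and Tcf7l2 fell. Over the 8 genes 3 rose (Lef1, Tcf7, Bcl9), where 20.1% of all genes tested rose, and 3 fell (Tcf7l1, Tcf7l2, Bcl9l), where 17.5% fell. Pygo1 and Pygo2 did not pass the test. Lef1 and Tcf7 rose past the second threshold, as 9.41% of all genes did, and the 3 genes that fell stayed inside it, where 3.59% of all genes fell past it. The median log2 fold change of the 8 genes was 0.31. In 4 genes every SA library was above every WT library, as in 32.7% of all genes, and in 3 genes every SA library was below, as in 30.7%.

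Lef1, the factor with the lowest WT level, was 78.7, 57.6 and 51.1 CPM in SA libraries 1 to 3. In WT libraries 1 to 3 it was 0.859, 0.467 and 0.546 CPM, from 19, 14 and 12 counts. All tumors were far above all WT samples, and SA library 1 was the highest. The mean was 100.1-fold higher in SA (log2 fold change 6.66, SE 0.27, n = 3 per group, edgeR adjusted p = 1.82e-06). Leaving out any 1 library kept the log2 fold change between 6.45 and 6.94.

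Tcf7, on the reverse strand of chromosome 11 at 52246527 to 52283383, was 107, 88.8 and 71.6 CPM in SA. In WT it was 8.59, 7.81 and 11.4 CPM. The groups did not overlap, and SA library 1 was again the highest. Its mean level rose 9.61-fold (log2 fold change 3.27, SE 0.20, n = 3 per group, edgeR adjusted p = 6.66e-06). The tables hold 1 Tcf7 row, NM_009331, with 303 codons in GENCODE, and long and short forms of the protein cannot be told apart from it. Whether these 303 codons hold the N-terminal β-catenin-binding region was not examined, so the rise is not that of a β-catenin-binding form in particular.

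Tcf7l1, on the reverse strand of chromosome 6 at 72626371 to 72789045, had the opposite pattern. It was 23.4, 28.3 and 27.7 CPM in SA and 80.3, 67.9 and 78.1 CPM in WT. Each tumor lay below each WT sample, and SA library 1, the highest for Lef1 and Tcf7, was the lowest for Tcf7l1. The level in WT was 2.85-fold that in SA (log2 fold change -1.51, SE 0.12, n = 3 per group, edgeR adjusted p = 2.08e-05). Among the basal keratins, which mark cells in which Tcf7l1 is usually found, Krt5 and Krt15 fell (log2 fold changes -1.21 and -3.61), and Krt14 did not pass the test (-0.49, adjusted p = 0.0504). Whether such cells were fewer or held less of these RNAs cannot be told apart in bulk tissue.

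Tcf7l2, on the forward strand of chromosome 19 at 55741797 to 55933659, was 18.5, 17.6 and 18.3 CPM in SA and 24.9, 30.6 and 30.3 CPM in WT. The tumors were nearly alike and all lay below the WT samples. The fall was modest (log2 fold change -0.66, SE 0.12, n = 3 per group, edgeR adjusted p = 0.00199). It missed the threshold without WT library 2 (log2 fold change -0.62, adjusted p = 0.0127) and when libraries were scaled by their totals alone (-0.37, adjusted p = 0.0325).

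**Figure D1:**
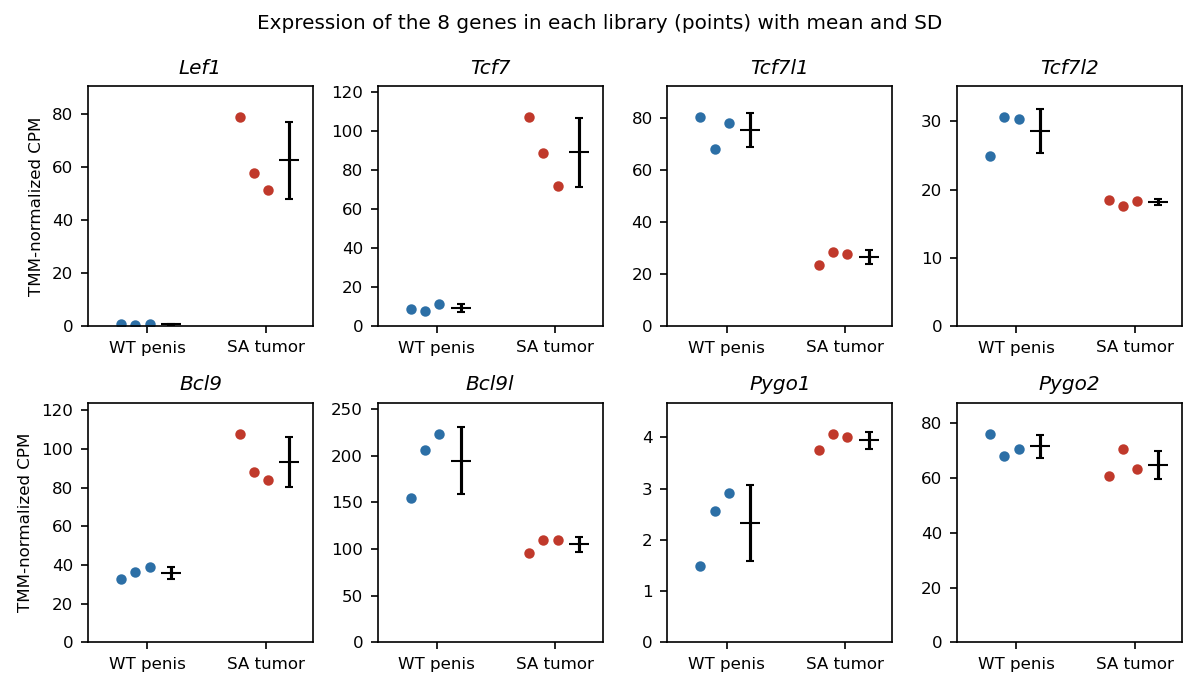
Level of each gene (TMM-normalized CPM, linear axes that start at 0 and differ between genes) in 3 WT penile epithelium (blue) and 3 SA tumor (red) libraries, with the mean and SD beside the points. Lef1, Tcf7, Bcl9 and Pygo1 have all tumors above all WT samples, Tcf7l1, Tcf7l2 and Bcl9l have all tumors below, and Pygo2 overlaps.

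BCL9 and BCL9L are paralogs with the same bridging role, and their genes moved in opposite directions. Bcl9, on the reverse strand of chromosome 3 at 97203658 to 97298402, was 108, 88.3 and 83.8 CPM in SA and 33.0, 36.3 and 39.2 CPM in WT. The groups were well separated, with SA library 1 highest. Bcl9 rose 2.58-fold (log2 fold change 1.37, SE 0.13, n = 3 per group, edgeR adjusted p = 5.00e-05).

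Bcl9l, on the forward strand of chromosome 9 at 44482738 to 44511906, was 95.8, 109 and 110 CPM in SA and 154, 206 and 223 CPM in WT. All tumors were below all WT samples, and WT library 1 stood nearest to the tumors. The log2 fold change was -0.89 (SE 0.14, n = 3 per group, edgeR adjusted p = 0.00108), and scaling by totals alone left -0.61 with an adjusted p of 0.0106. The annotated gene Cxcr5 overlaps Bcl9l and itself fell (log2 fold change -1.06, adjusted p = 0.00489). The strand setting of the counting was not given in the sources used here, so reads of overlapping genes may not be fully separated. Skp1 overlaps Tcf7, and the long noncoding RNA genes Gm15401 and Gm31734 overlap Tcf7l1 and Tcf7l2.

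Pygo1, the Pygopus gene with the lower level, was 3.75, 4.07 and 4.0 CPM in SA and 1.49, 2.57 and 2.91 CPM in WT. The groups did not overlap, but the WT samples were spread and the difference missed the threshold (log2 fold change 0.76, SE 0.28, n = 3 per group, edgeR adjusted p = 0.0455). Pygo2, the more abundant paralog, was 60.7, 70.6 and 63.4 CPM in SA and 76.2, 68.1 and 70.6 CPM in WT. Its groups overlapped, and the log2 fold change of -0.14 (SE 0.10, n = 3 per group, edgeR adjusted p = 0.259) became 0.14 when libraries were scaled by their totals alone. That scaling shifted the median of all genes to 0.31, and relative to the median Pygo2 stayed slightly lower, at -0.17.

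**Figure D2:**
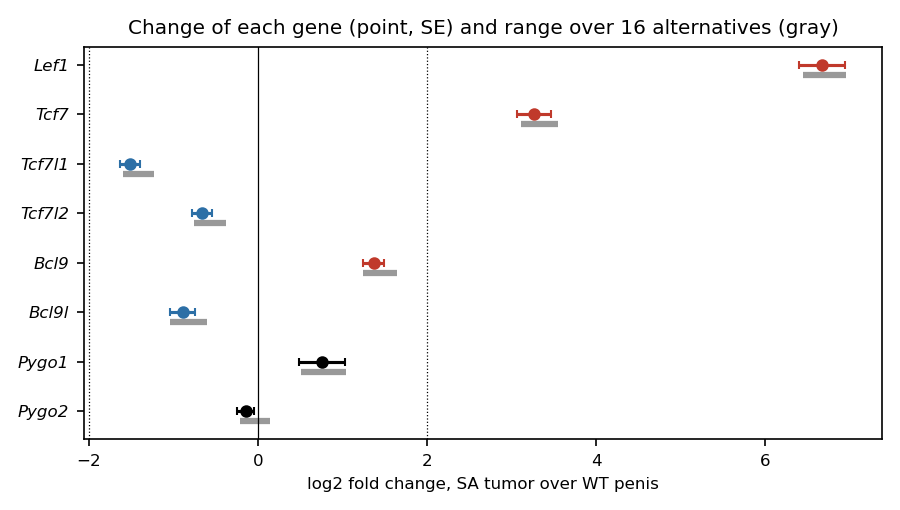
Log2 fold change of SA tumors over WT penile epithelium for each gene (point, bar 1 SE, red rose, blue fell, black not past the test), with gray bars for the range over 16 alternative analyses and dotted lines at a size of 2. Lef1 (6.66) and Tcf7 (3.27) lie beyond the dotted line, Tcf7l1 (-1.51) and Bcl9 (1.37) lie inside it, and the gray bar of Pygo2 crosses 0 through scaling by library totals.

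To compare levels between genes, the deposited TPM, which divide counts by transcript length, were used. In WT the TCF/LEF order was Tcf7l1 (35.9 ± 3.12 TPM, SD, n = 3), Tcf7l2 (9.50 ± 1.58), Tcf7 (5.72 ± 1.43) and Lef1 (0.232 ± 0.0626). In SA the order was Tcf7 (70.6 ± 13.8 TPM), Lef1 (30.3 ± 7.13), Tcf7l1 (16.3 ± 1.56) and Tcf7l2 (7.76 ± 0.42). No neighbours in either order overlapped between libraries. Among the co-factors in SA, Pygo2 (35.4 ± 1.91 TPM), Bcl9l (35.0 ± 2.78) and Bcl9 (27.2 ± 3.89) came next to each other. Pygo2, Bcl9l and Lef1 overlapped between libraries in SA, and so did Lef1 and Bcl9, while Pygo1 was 4.01 ± 0.17 TPM. In WT, Bcl9l was 50.5 ± 12.1 TPM, Pygo2 30.2 ± 1.08, Bcl9 8.16 ± 1.18 and Pygo1 1.85 ± 0.68, and overlap was seen between Bcl9l and Tcf7l1, between Tcf7l2 and Bcl9 and between Bcl9 and Tcf7.

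Within a library the share of each gene in the summed TPM of the 4 TCF/LEF genes does not depend on how libraries are scaled to each other. Tcf7l1 made up 73.4%, 68.2% and 68.4% of this sum in WT libraries 1 to 3, and 9.93%, 14.1% and 16% in SA libraries 1 to 3. Lef1 made up 0.619%, 0.370% and 0.377% in WT and 26.3%, 22.7% and 23.3% in SA. Tcf7 was the largest share in every tumor, at 56.3% ± 2.60 (SD, n = 3), and 11.0% ± 1.6 in WT. Tcf7l2 was 6.30% ± 0.95 in SA and 18.5% ± 2.76 in WT. Lef1 and Tcf7 together were 80.3% in SA and 11.5% in WT. None of these shares overlapped between the groups, and each gave p = 0.10 in the two-sided exact permutation test, the smallest p that 3 against 3 allows, also after adjustment over the 4 genes. The summed level was 125 ± 19.3 TPM in SA and 51.3 ± 5.12 TPM in WT (n = 3 each, exact permutation p = 0.10).

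As a ratio, Lef1 to Tcf7l1 went from a mean log2 value of -7.31 in WT to 0.87 in SA. For Tcf7 to Tcf7l1 it went from -2.67 to 2.10, and for Lef1 to Tcf7 from -4.63 to -1.23. The remaining ratio of the falling pair, Tcf7l1 to Tcf7l2, was 1.93 in WT and 1.07 in SA. Of the 8 ratios computed, none overlapped between groups, and all had an exact permutation p of 0.10, before and after adjustment. The ratios, like the shares, recombine genes already compared singly above. They restate those differences and are no separate support for them.

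The BCL9 pair differed between the groups in composition. Bcl9 made up 49.6%, 41.4% and 39.9% of Bcl9 plus Bcl9l TPM in SA libraries 1 to 3, and 15.7%, 13.4% and 13.3% in WT libraries 1 to 3 (exact permutation p = 0.10). The sum was 62.2 ± 2.03 TPM in SA and 58.7 ± 13.2 TPM in WT (n = 3 each, exact permutation p = 0.80). Unlike the shares, sums of TPM depend on how libraries are scaled to each other, and deposited TPM are relative to library totals. Pygo1 was 10.2% ± 0.43 of the Pygopus sum in SA and 5.74% ± 1.94 in WT (n = 3 each, exact permutation p = 0.10). This difference of 4.44 points was 1.09 points with GENCODE exon lengths and 0.972 points with TPM summed over transcript rows. Pygo2 remained the main Pygopus gene in all libraries.

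**Figure D3:**
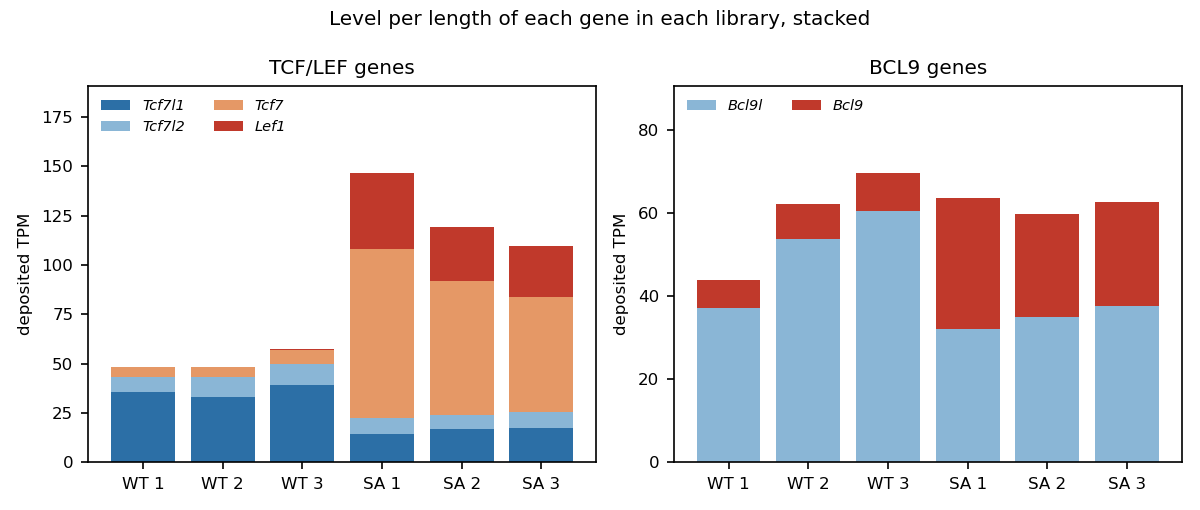
Deposited TPM of the TCF/LEF genes (left) and the BCL9 genes (right) in each library, stacked from 0, so that a bar's height is the sum. Tcf7l1 fills most of each WT bar on the left and Tcf7 with Lef1 most of each SA bar, while on the right the bars average 62.2 TPM in SA and 58.7 TPM in WT and the Bcl9 portion is larger in SA.

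The transcript rows of one gene share most of their reads and are not independent. In SA the count of the internal-start Lef1 row was 68.3%, 66.9% and 64.5% of the NM_010703 count, and its length, as implied by the deposited counts and FPKM, was 63.0% of NM_010703. In WT it was 84.2%, 64.3% and 83.3%, on 16, 9 and 10 counts. In SA the share of counts thus lay near the share of length, and in WT it rested on few counts. How much of Lef1 started at either site was not tested. Tested as its own row, NM_001276403 rose like NM_010703 (log2 fold change 6.44 and 6.67). The corresponding internal-start Tcf7l2 row, NM_001142924 with 299 codons, was 78.8% ± 4.62 of the main row in SA and 79.5% ± 1.54 in WT (n = 3 each). Its log2 fold change was -0.66, and the 8 Tcf7l2 rows lay between -0.66 and -0.65.

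Genes of the wider nuclear pathway were read from lists of corepressors, nuclear inhibitors, coactivators and target genes. Targets of β-catenin moved most: 10 of 15 tested rose, all past the second threshold (9.41% of all genes), 1 fell, and the median log2 fold change was 2.36. Dkk4, a secreted Wnt antagonist, was 291, 166 and 165 CPM in SA and 0.407, 0.300 and 0.638 CPM in WT (log2 fold change 8.88, edgeR adjusted p = 2.76e-06). Sp5, a zinc-finger factor induced by Wnt, had a log2 fold change of 7.29 (adjusted p = 2.11e-06). Nkd1, an intracellular antagonist, was at 4.17 and Apcdd1, a membrane inhibitor, at 4.0. Axin2, the feedback scaffold, was 368, 273 and 245 CPM in SA and 18.6, 21.5 and 22.1 CPM in WT. Lgr5, an R-spondin receptor and also a target, fell (log2 fold change -0.93, adjusted p = 0.000342). Ccnd1, Myc, Ephb3 and Cd44 did not pass, with log2 fold changes between -0.29 and 0.45, and Dkk1 was too low to test.

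β-catenin itself, Ctnnb1, rose from 954, 944 and 959 CPM in WT to 1758, 1403 and 1251 CPM in SA (log2 fold change 0.63, edgeR adjusted p = 0.00536). Of 15 coactivators and partners 3 rose (Ctnnb1, the chromatin remodeler Smarca4 at 0.63 and Ssbp4 at 0.55), 2 fell (Ssbp3 at -1.04 and Ssbp2 at -0.60) and 10 did not pass, with a median of 0.20. These counts are near the 20.1% and 17.5% of all genes that rose and fell. The SSBP proteins belong to the complex with LDB1 that holds Pygopus and BCL9 at enhancers, and Ldb1 was at 0.04. The acetyltransferase genes Crebbp and Ep300 were at 0.02 and 0.20. Without WT library 2 the edgeR count of coactivators that rose was 0, with 3 higher at an unadjusted p under 0.05, and DESeq2 over all libraries called 3.

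Among 9 corepressors tested 2 rose (Tle6 at 0.97 and Tle3 at 0.48), 1 fell (Tle4 at -0.86, adjusted p = 0.00033) and 6 did not pass, with a median of 0.08, again close to the shares of all genes (20.1% and 17.5%). The count that rose was 1 without SA library 2 or WT library 1 and 0 without WT library 2 or WT library 3. In both of the runs with a count of 0, 3 corepressors were higher at an unadjusted p under 0.05 in edgeR, and DESeq2 over all libraries called 2. Tle1 and Aes, a short TLE relative, were at 0.03 and 0.02. Of 7 nuclear inhibitors, Nlk, a kinase that phosphorylates TCF/LEF proteins, rose (0.82) and Ctnnbip1 (ICAT), which blocks β-catenin from TCF, fell (-1.20, adjusted p = 0.00024). The other 5 did not pass, and the list median was -0.25. Leaving out SA library 3 raised the count that fell to 2. Beside these counts, 20.1% of all genes tested rose and 17.5% fell.

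**Figure D4:**
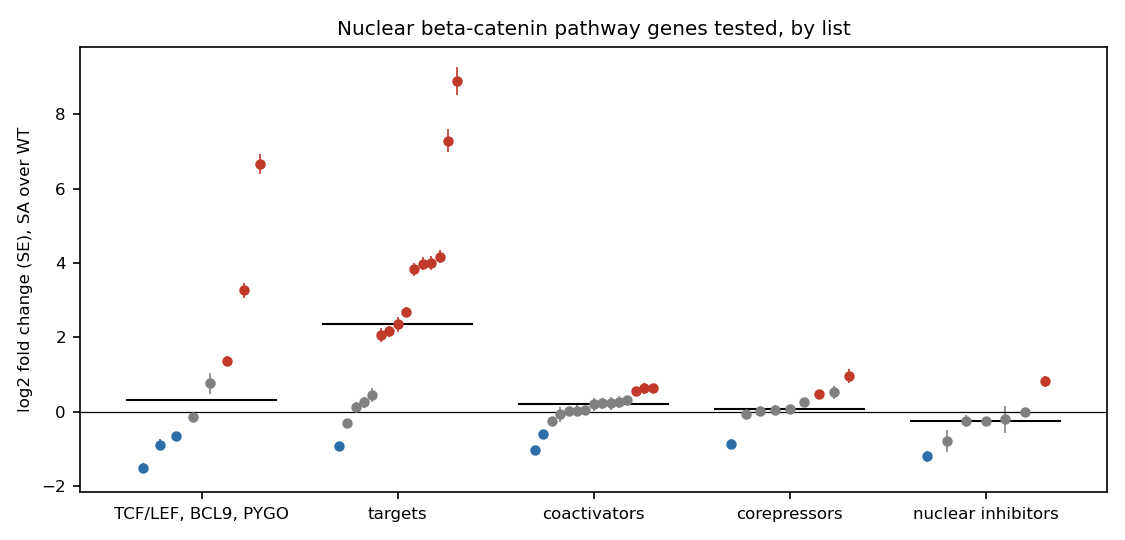
Log2 fold change of SA tumors over WT penile epithelium (point, bar 1 SE) for each tested gene of the 8 genes and of 4 pathway lists, ordered by value, with black lines at the medians (red rose, blue fell, gray not past the test). Targets reach 8.88 (Dkk4) with a median of 2.36, while coactivators, corepressors and nuclear inhibitors stay between -1.20 and 0.97.

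Lef1 and Tcf7 are also T cell genes, and T cell markers were read beside them. Of 12 markers 10 were tested, 3 rose (Cd5 at 2.79, Il7r at 2.24 and Lck at 2.07) and 7 did not pass. Of all genes tested 20.1% rose. The summed level of the 12 markers was 44.8 to 53.0 CPM in SA and 15.3 to 18.8 CPM in WT. Per length, the T cell receptor complex genes Cd3d, Cd3e and Cd3g were between 0.700 and 5.79 TPM in SA and Cd247 between 4.31 and 6.92 TPM. Cd5 was the highest marker of the list in SA, at 20.6, 18 and 13 TPM in libraries 1 to 3, and Cd8a and Cd8b1 were at most 0.128 TPM. Lef1 was between 25.5 and 38.5 TPM and Tcf7 between 58.4 and 85.5 TPM in the same libraries. Cd5 alone of the list had the same order over the tumors as Lef1 and Tcf7, with SA library 1 highest. The reverse order was seen for Cd3d, Cd3e, Cd3g, Cd4, Cd8a, Cd2, Cd28 and Il7r. Cd3e was 0.787, 1.38 and 3.82 TPM and Il7r 1.51, 1.78 and 4.19 TPM in SA libraries 1 to 3. The log2 fold changes of Cd3d, Cd3e and Cd3g, 1.29, 1.34 and 1.14, did not pass the test. The part of T cells in the changes of Lef1 and Tcf7 was not tested. Of 8 hair matrix and precortex markers, the other setting in which Lef1 is high, 6 fell and 2 did not pass. Over all genes tested 17.5% fell. Krt31 was at -3.80, Krt85 at -3.75 and Hoxc13 at -3.63.

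SA library 1 was highest for Lef1, Tcf7, Bcl9 and 9 of the 10 targets that rose, and it was the highest SA library for 44.8% of the 3283 genes that rose. Its summed fibroblast marker level was the lowest, 1284 CPM, against 3704 and 4761 CPM in the other tumors and 6071 to 6352 CPM in WT. Of the 6 fibroblast markers 1 fell (Dcn at -1.80) and 5 did not pass. Of 5 endothelial markers 2 fell (Emcn at -1.87 and Pecam1 at -0.92), where 17.5% of all genes tested fell. The part of these non-epithelial cells in the changes of the 8 genes was not tested. Without SA library 1 the 8 genes kept their calls.

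The genes with the profile most like that of each TCF/LEF gene were found over the 6 libraries among 13823 genes, by the root mean square distance of centered log2 CPM. These are descriptions over 2 groups of 3. For Lef1 they were Sidt1 (distance 0.213), Gad1 (0.241) and Evx1 (0.248). For Tcf7 they were Tmem229a (0.105), Shisa9 (0.119) and Thbs2 (0.135). For Tcf7l1 they were Mboat1 (0.0669), Pla2g4f (0.0781) and Vat1 (0.0804), and for Tcf7l2 Iqsec2 (0.0328), Lsm11 (0.0342) and Tnfaip3 (0.0462). Sidt1, Gad1 and Evx1 reached the mean of 100 counts only through the SA libraries, where they are high. The same holds for Tmem229a and Shisa9. In WT libraries 1 to 3 Tmem229a was 0.407, 0.367 and 0.455 CPM and Shisa9 0.542, 0.40 and 0.638 CPM. The likeness of these genes to Lef1 or to Tcf7 therefore restates the difference between the groups. The distances for Lef1 depend on the prior count of 2 in the log2 CPM, since its neighbours were at few counts in WT, and their order is not firm. Sidt1 was 0.226, 0.0667 and 0.137 CPM and Gad1 0.316, 0.10 and 0.137 CPM in WT, at or under 3 counts in WT libraries 2 and 3. Evx1, a homeobox gene, was 10.2, 6.92 and 6.36 CPM in SA and 0.0452, 0 and 0.0455 CPM in WT, where these levels lie under 3 counts.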

How the data were processed

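RNA was sequenced from 3 SA penile tumors and 3 WT penile epithelia as stranded paired-end libraries. The authors checked reads with FastQC, aligned them with TopHat (mm10) and used HTSeq for counting and DESeq2 for their own test. Tool versions and the strand setting of the counting were not given in the sources used here. The authors deposited raw counts, FPKM and TPM per RefSeq transcript. The deposited TPM were used to compare genes per length, and the deposited FPKM only to derive transcript lengths. A read shared by several transcripts entered each of their rows, so each symbol was represented by its row with the highest mean count.

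The counts were fitted with edgeR 4.0.16 under R 4.3.3 (filterByExpr with a minimum count of 10 and a total of 15, TMM, robust quasi-likelihood fit, two-sided), and p-values were adjusted by Benjamini-Hochberg over 16336 genes. The standard error is the log2 fold change divided by the square root of F. Single shares, sums and ratios were tested by exact permutation over samples. The fitting script was tested on simulated data. Alternatives were DESeq2 1.42.0, limma 3.58.1 (voom), other scalings and filters, summed transcript rows, thinning of SA library 3, the replicate block and leaving out each library. The fit of each transcript row was added after seeing the data. Named genes were the 8 genes, Apc, Smad4 and Ctnnb1, up to 4 genes per list and direction with the largest change past the test, genes behind counts of 5 or fewer, and the 3 nearest profiles. Other list genes named beside them (such as Ldb1, Crebbp, Ep300, Tle1 and Aes) and Krt5, Krt14, Cd247, Cd3d, Cd3e, Cd3g, Cd4, Cd8a, Cd8b1, Cd2 and Cd28 were chosen after their values were seen. The genes and lists were chosen with earlier results of these data known. Replicates are labelled as separate samples, the p-values measure the spread between these samples, and limits given as 3 counts cover counting error only. One marker list is not reported here.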

Additional observations from a re-analysis of the deposited data

How the results depend on the processing

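Lef1, Tcf7, Tcf7l1 and Bcl9 kept direction and call in all 16 alternatives, Bcl9l in 15 and Tcf7l2 in 14, and neither Pygo1 nor Pygo2 passed in any of them. Scaling by library totals alone gave 1 of the 8 genes that fell in place of 3, moved the log2 fold change of Pygo2 to 0.14, and moved the split of all genes from 3283 higher and 2865 lower to 5244 higher and 1807 lower. The median of all genes was then 0.31, and relative to it Tcf7l2 was at -0.69 and Bcl9l at -0.92. Under that scaling 5 corepressors rose and 1 coactivator fell. Shares changed with the length used and with summing over rows. With GENCODE exon lengths, used because the tables hold no length column, the SA minus WT difference in share was 41.9 points for Tcf7 and -8.37 for Tcf7l2, in place of 45.2 and -12.2. With TPM summed over rows, which counts genes with several rows more often, it was 35.3 for Lef1, 23.5 for Tcf7, -34.0 for Tcf7l1 and -24.8 for Tcf7l2. The Pygo1 share difference of 4.44 points was 1.09 points with GENCODE exon lengths and 0.972 points with summed TPM. The Pygo1 row was 7916 bases long in GENCODE and 1745 bases as implied by the deposited counts and FPKM. The sum over rows took 5 rows for Pygo2 and 1 for Pygo1. Same-numbered libraries did not deviate together (correlations -0.13, -0.10 and 0.02). These values, from 3 libraries per group, cannot settle whether the numbers pair them. With the replicate block 6 of the 8 genes passed, as without it, with an adjusted p of 0.00746 for Tcf7l2, and 2066 in place of 2124 genes passed both thresholds. At 0.859 CPM and below, Lef1 in WT rests on 12 to 19 counts, which limits the precision of its fold change.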
